A study of Mus musculus with 6 samples.

Results

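The genes described here are the heat shock proteins and the DnaJ co-chaperones: every gene of the deposited tables whose symbol starts with Hspa, Hspb, Hspd, Hspe, Hsph, Hsp90 or Dnaj. The rule names genes by symbol only and found 75 of 21936 genes. Expression was measured by RNA sequencing of sorted mouse macrophages in 2 groups of 3 libraries. The libraries labelled CKO came from ALKBH5flox/flox mice that also carried Lyz2-Cre, in which the myeloid Lyz2 locus drives the recombinase. The libraries labelled WT came from ALKBH5flox/flox mice without the recombinase. Per the labels, both groups were APOE-/- and had a high-fat diet for 4 months, and no lean or APOE+/+ group is among them. Whether the 3 libraries of each group came from separate animals is not stated, so errors and p-values rest on the spread between libraries, which may be technical.

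Heat shock proteins are molecular chaperones. HSP70 proteins bind exposed hydrophobic stretches of unfolded chains in a cycle driven by ATP. DnaJ proteins, also called J proteins, deliver clients to HSP70 and start its ATP hydrolysis, and HSP110 proteins release the spent nucleotide. HSP90 receives many clients from HSP70, among them kinases and steroid hormone receptors, the mitochondrial chaperonin folds imported proteins in a closed cage, and small heat shock proteins hold unfolded chains without ATP. Stress in the cytosol raises several of these genes through heat shock factor HSF1 and its DNA element, and stress in the endoplasmic reticulum (ER) raises another set through the unfolded protein response.

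The labels were checked first. Alkbh5, the gene to be deleted, had 9.15, 8.61 and 8.50 FPKM (reads scaled by gene length and by the assigned reads of the library) in the libraries labelled CKO and 3.77, 3.95 and 3.88 FPKM in those labelled WT, opposite to a loss. These values cover the whole gene and cannot show a missing exon. Apoe, null in both groups by the labelled genotype, had 89.6, 97.3 and 98.1 FPKM in the libraries labelled CKO and 1665, 1632 and 1607 FPKM in those labelled WT. Both genes go against the labels, which may be wrong, so groups are called by their labels throughout and each direction holds for the labels only. Lyz2, the locus that drives the recombinase, had a mean of 6556 FPKM in libraries labelled CKO and 15120 FPKM in those labelled WT. What this difference says about the labels was not tested. Depth was 15422154 to 18418903 reads per library. Of 10 macrophage markers, 5 were higher and 4 lower in libraries labelled CKO. Their sum was 9366 to 9790 FPKM in libraries labelled CKO and 16520 to 18440 FPKM in those labelled WT, mostly Lyz2, and without Lyz2 2943 to 2993 FPKM in libraries labelled CKO and 2191 to 2214 FPKM in those labelled WT. Of 9 tested neutrophil markers, 8 were lower and Mmp8 was higher. Of all tested genes, 30.5% were higher and 50.5% lower. Elane, Retnlg, Ngp and Ltf passed the filter of 1 FPKM in 3 libraries only through those labelled WT. The neutrophil list summed to 87.0 to 99.6 FPKM in libraries labelled CKO and 623 to 913 FPKM in those labelled WT. Ly6g was at or near 0 in all 6 libraries. Dendritic cell markers summed to 20.4 to 23.9 FPKM in libraries labelled CKO, mostly Ccr7, and to 1.90 to 2.34 FPKM in those labelled WT, and without Ccr7 they stayed under 1.7 FPKM in every library. T and NK cell markers summed to 1.23 to 1.36 FPKM in libraries labelled CKO and 4.61 to 5.41 FPKM in those labelled WT, a difference carried by Cd4, since Cd3d, Cd3e and Cd3g were near 0 throughout. B cell markers summed to 1.63 to 2.31 FPKM in libraries labelled CKO and 3.97 to 5.97 FPKM in those labelled WT. Endothelial markers summed to 7.77 to 8.99 FPKM in libraries labelled CKO and 26.5 to 27.1 FPKM in those labelled WT, in the latter mostly Vwf. Pecam1 had a mean of 1.47 FPKM in libraries labelled CKO and 0.880 FPKM in those labelled WT. It passed the filter only through the libraries labelled CKO, where it is higher. Fibroblast and smooth muscle sums stayed under 3.2 FPKM in all libraries. Their part in any difference below was not tested, and fewer cells of a type and less RNA per cell cannot be told apart in bulk libraries.

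Of the 75 genes, 59 reached the filter of 1 FPKM in 3 libraries and were tested, and 6 (Hspb2, Hspb3, Dnajb8, Dnajc5b, Dnajc5g and Dnajc22) had no read in any library. In the fit over all 9953 tested genes by limma, 29 chaperone genes were higher in libraries labelled CKO and 23 were lower at an adjusted p under 0.05, while 7 were not called. Of all tested genes, 81.1% were called, 30.5% higher and 50.5% lower, so most genes differed between these groups and a single call is common. The share of chaperone genes called higher was 49.15%, and the share called lower 38.98%. The 2 groups did not overlap for 52 of the 59 genes, or 88.1%, against 82.5% of all tested genes. Among the 59, 6 were higher and 2 lower by at least 1 on the log2(FPKM + 1) scale, against 8.35% and 10.0% of all tested genes. The median difference was 0.18 for the chaperone genes and -0.14 for all tested genes. Without a filter it was -0.0073 over 69 chaperone genes and -0.03 over all genes.

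These counts depend on the scaling. Median-of-ratios scaling raised the differences of all genes by a median of 0.16 on the log2 scale. With it, 31 chaperone genes were higher, 15 lower and 13 not called, beside 40.8% of all tested genes higher and 38.9% lower, and the medians were 0.27 and 0.01. Quantile normalization gave 31 higher and 17 lower, beside 35.9% and 43.4% of all tested genes. All 29 genes called higher kept that call under both, and 15 of the 23 lower genes did. Hspa1a and Hspa1b passed the filter only through the libraries labelled CKO and Dnajb13 only through those labelled WT, and without these 3 the counts were 27 higher and 22 lower.

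**Figure D1:**
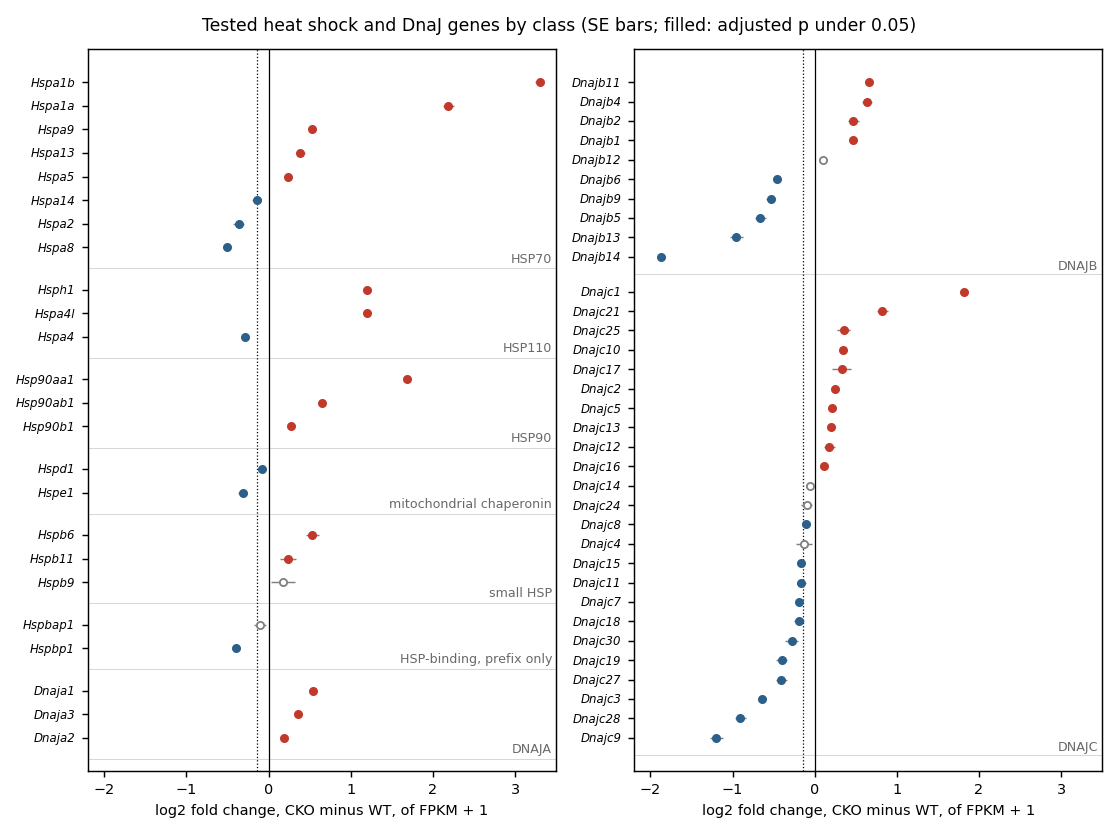
Log2 fold change of FPKM + 1, libraries labelled CKO minus labelled WT, with SE bars, for 58 of the 59 tested genes sorted within their classes. Filled points have an adjusted p under 0.05, the dotted line marks the median of all tested genes at -0.14, and Hspa1b at 3.30 and Dnajb14 at -1.86 are the ends of the range.

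Among the HSP70 genes, the stress-inducible pair stood far apart from the constitutive ones. Hspa1b and Hspa1a encode near-identical inducible HSP70 proteins from neighbouring genes on chromosome 17. Hspa1b had 13.8, 14.5 and 14.8 FPKM in libraries labelled CKO and 0.600, 0.497 and 0.578 FPKM in those labelled WT, a log2 difference of 3.30 (SE 0.055, limma adjusted p = 4.70e-13). Hspa1a had 4.82, 5.49 and 4.85 FPKM in libraries labelled CKO and 0.348, 0.394 and 0.243 FPKM in those labelled WT, a log2 difference of 2.19 (SE 0.070, limma adjusted p = 1.03e-10). All 3 libraries labelled CKO lay above all 3 labelled WT for both genes. Both genes passed the filter only through the libraries labelled CKO, the group where they are high, so their p-values are no independent support. The reads behind the libraries labelled WT were few, 25 to 31 for Hspa1b and 12 to 21 for Hspa1a. Of the 50-base windows of the transcripts, 62.3% of Hspa1b and 60.4% of Hspa1a also occur in another gene, mostly in each other, so the split between them is uncertain. Their sum avoids that split and was 19.4 ± 0.73 FPKM in libraries labelled CKO and 0.887 ± 0.064 FPKM in those labelled WT (SD, n = 3 libraries each).

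The promoters of this pair show a heat shock element. The 250 bases before each start, from RefSeq on GRCm38.p6, are given 5′ to 3′ with the 2-unit element GAANNTTC in capitals:
Hspa1b (chr17:34959239-34959488, minus strand): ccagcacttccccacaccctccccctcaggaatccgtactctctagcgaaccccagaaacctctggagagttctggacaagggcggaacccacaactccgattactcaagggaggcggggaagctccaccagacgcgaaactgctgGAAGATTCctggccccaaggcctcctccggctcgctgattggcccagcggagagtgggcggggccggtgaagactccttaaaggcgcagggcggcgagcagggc
Hspa1a (chr17:34972157-34972406, minus strand): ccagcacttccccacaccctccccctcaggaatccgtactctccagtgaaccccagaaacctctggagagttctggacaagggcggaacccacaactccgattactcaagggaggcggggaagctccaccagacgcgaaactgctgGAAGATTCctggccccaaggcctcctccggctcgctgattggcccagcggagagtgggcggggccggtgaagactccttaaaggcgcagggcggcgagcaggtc
The 2 windows differ at 3 of 250 bases, and in both the element lies 104 to 97 bases before the start. A match is a description of the letters, not a bound site.

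Promoters were found for 60 of the 75 genes. Heat shock elements were searched on both strands as GAANNTTC and TTCNNGAA, the 2-unit forms, and as GAANNTTC continued by NNGAA, the 3-unit form that contains both. Any of them occurred in 14 of the 60, or 23.3%, against 14.5% of 27025 genes of the same table. By outcome they occurred in 7 of 22 genes called higher, 4 of 19 called lower, 0 of 6 not called and 3 of 13 not tested. The 3-unit element occurred in Dnajb6, Hspd1 and Hspe1, all called lower, though Hspd1 not under each scaling, and in 0.514% of all genes. With 50 bases after the start added, it also occurred in Hsph1, which was called higher, and in 0.662% of all genes. Matches were thus found on both sides of the comparison.

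Hspa8 encodes HSC70, the constitutive cytosolic HSP70, and was the most abundant HSP70 gene in every library. It had 295, 297 and 313 FPKM in libraries labelled CKO and 429, 438 and 416 FPKM in those labelled WT, a log2 difference of -0.50 (SE 0.031, limma adjusted p = 3.63e-08). The groups did not overlap, and the difference was opposite to that of the inducible pair. Of its 50-base windows 73.2% are shared with other genes, mostly a pseudogene, Gm15459. As a share of Hspa1a, Hspa1b and Hspa8 together, the inducible pair made up 6.05% ± 0.23 in libraries labelled CKO and 0.207% ± 0.012 in those labelled WT (SD, n = 3 each, exact two-sided permutation p = 0.1, the smallest that 3 against 3 allows).

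Hspa5, the ER HSP70 known as BiP, had 166.7, 168.1 and 167.9 FPKM in libraries labelled CKO and 139.5, 143.7 and 142.1 FPKM in those labelled WT, a log2 difference of 0.24 (SE 0.026, limma adjusted p = 5.54e-06). The groups did not overlap, but the difference was small. Hspa9, the mitochondrial HSP70 mortalin, was also higher, at 67.0 ± 0.57 FPKM in libraries labelled CKO and 46.3 ± 0.85 FPKM in those labelled WT (SD, n = 3 each), a log2 difference of 0.52. Hspa13, an ER HSP70 without the substrate-binding domain, was higher by 0.39. Hspa2, known from germ cells, was lower at -0.37. Hspa14, an HSP70 of the ribosome, was called lower at -0.14 (limma adjusted p = 0.0244), but was 0.013 under median-of-ratios scaling and lost the call without CKO 2 (-0.13, adjusted p = 0.0743) or WT 3 (-0.11, adjusted p = 0.104). Hspa1l, Hspa12a and Hspa12b stayed under 0.2 FPKM in every library and were not tested.

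The HSP110 genes split. Hsph1, also called HSP105, had 17.5, 17.2 and 16.7 FPKM in libraries labelled CKO and 6.71, 6.72 and 7.21 FPKM in those labelled WT, a log2 difference of 1.20 (SE 0.045, limma adjusted p = 3.79e-10). Hspa4l rose by 1.20 as well, with 10.6 ± 0.52 FPKM in libraries labelled CKO and 4.03 ± 0.060 FPKM in those labelled WT (SD, n = 3 each). Hspa4, the most abundant of the 3, fell by 0.29 on the log2 scale, to 32.0 ± 0.89 FPKM in libraries labelled CKO, against 39.3 ± 0.98 FPKM in those labelled WT. Summed over the 14 HSP70 and HSP110 genes, FPKM was 630.5 ± 9.4 in libraries labelled CKO and 681.5 ± 10.4 in those labelled WT, but after median-of-ratios scaling it was 670.6 ± 13.0 in libraries labelled CKO and 637.7 ± 14.4 in those labelled WT. The direction of the family total thus depended on the scaling, whereas shares within a library do not change under a single factor per library. Shares were not computed after quantile normalization, which changes genes unequally. Hspa8 took 47.8% ± 0.84 of this sum in libraries labelled CKO and 62.8% ± 0.82 in those labelled WT. Hspa5 took 26.6% ± 0.32 in libraries labelled CKO and 20.8% ± 0.28 in those labelled WT, and Hspa9 took 10.6% ± 0.067 in libraries labelled CKO and 6.79% ± 0.20 in those labelled WT (SD, n = 3 each, exact two-sided permutation p = 0.1 for each share).

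**Figure D2:**
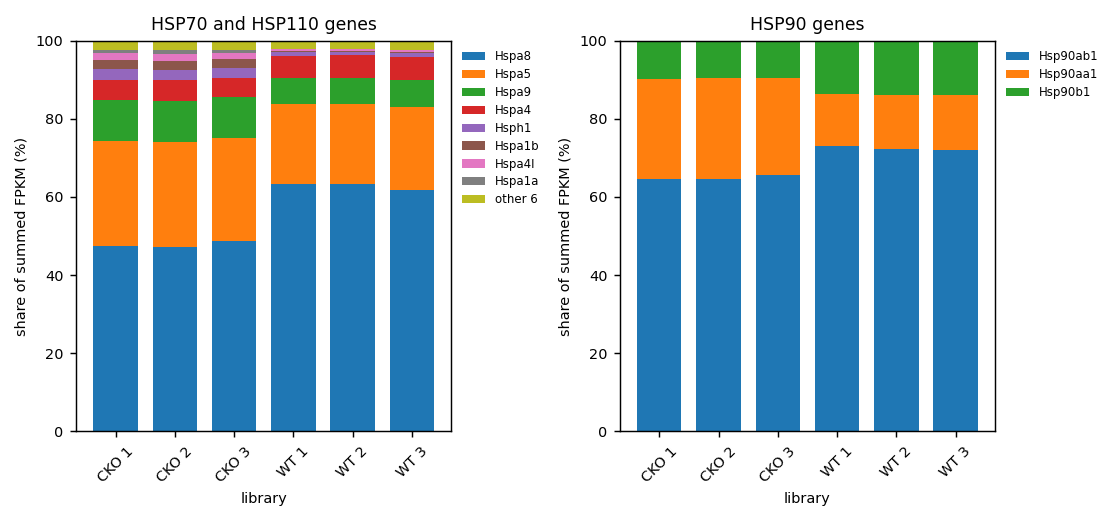
Stacked shares in percent of summed FPKM in each library, the 3 labelled CKO left of the 3 labelled WT, for the 14 HSP70 and HSP110 genes and for the HSP90 genes. Hspa8 is the largest HSP70 share in all 6 libraries and is lower in those labelled CKO, and Hsp90aa1 is higher there.

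All 3 HSP90 genes were higher in libraries labelled CKO, beside 30.5% of all tested genes, and they kept that direction under each scaling. Hsp90aa1, the inducible cytosolic HSP90, had 203.2, 212.1 and 201.7 FPKM in libraries labelled CKO and 61.6, 64.9 and 63.9 FPKM in those labelled WT, a log2 difference of 1.68 (SE 0.032). Hsp90ab1, the constitutive cytosolic form, had 510.3, 528.2 and 533.2 FPKM in libraries labelled CKO and 336.5, 334.9 and 330.8 FPKM in those labelled WT, a log2 difference of 0.65 (SE 0.026, limma adjusted p = 8.08e-10). Hsp90b1, the ER form GRP94, was higher by 0.27, at 77.1 ± 0.77 FPKM in libraries labelled CKO and 63.7 ± 0.81 FPKM in those labelled WT (SD, n = 3 each). The inducible gene changed most: Hsp90aa1 made up 28.2% ± 0.65 of the cytosolic pair in libraries labelled CKO and 16.0% ± 0.43 in those labelled WT (SD, n = 3 each, exact two-sided permutation p = 0.1). Windows shared with other genes made up 58.5% of Hsp90aa1, mostly with Gm12346. Summed HSP90 was 806.6 ± 14.8 FPKM in libraries labelled CKO and 461.2 ± 2.6 FPKM in those labelled WT.

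Of the mitochondrial chaperonin, Hspd1 changed little and Hspe1 was lower. Of the 50-base windows, 44.8% of Hspd1 and 36.1% of Hspe1 also occur in other genes. Hspd1, the HSP60 ring, had 66.9, 66.1 and 67.3 FPKM in libraries labelled CKO and 68.9, 70.2 and 73.4 FPKM in those labelled WT. Its call of lower (log2 fold change -0.08, SE 0.032, limma adjusted p = 0.0323) turned to higher at 0.10 under median-of-ratios scaling. It was lost without CKO 1 (-0.09, adjusted p = 0.0547), CKO 2 (-0.08, adjusted p = 0.0919) or WT 3 (-0.06, adjusted p = 0.147). Hspe1, the HSP10 lid, was 38.0 ± 1.9 FPKM in libraries labelled CKO and 47.5 ± 3.5 FPKM in those labelled WT (SD, n = 3 each), a log2 difference of -0.32 that stayed lower under each scaling. These 2 genes lie head to head with overlapping exons and share a 3-unit heat shock element, GAAGGTTCTAGAA on the Hspd1 strand (minus, chr1:55088059-55088071, GRCm38.p6). A second 3-unit match overlaps it at chr1:55088064-55088076, and both matches overlap an annotated exon.

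Few small heat shock protein genes were expressed, 3 of 8 being tested. Hspb6, also known as HSP20, had 1.90, 1.97 and 1.91 FPKM in libraries labelled CKO and 1.06, 1.24 and 0.809 FPKM in those labelled WT, a log2 difference of 0.53. Hspb11, an intraflagellar transport subunit despite its name, was called higher at 0.24 (limma adjusted p = 0.0368), with calls lost without CKO 3 (0.13, adjusted p = 0.156) or WT 2 (0.18, adjusted p = 0.129). Hspb9 was not called, though it was called higher under quantile normalization (0.33), and Hspb7 and Hspb8 stayed under 0.2 FPKM in every library. Hspb1, the small heat shock protein HSP25 of mice, was under the filter at 0.623, 0.692 and 0.490 FPKM in libraries labelled CKO and 0.263, 0 and 0.116 FPKM in those labelled WT, from 9 to 11 reads per library labelled CKO and 0 to 5 per library labelled WT. Of the 50-base windows of Hspb1, 51.65% are shared with Hsp25-ps1. The rule also takes in Hspbp1, a nucleotide exchange factor of HSP70 and no heat shock protein, which was lower at -0.39, and Hspbap1, which was not called.

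The class of J proteins most like bacterial DnaJ, DNAJA, was higher throughout its 3 tested genes, beside 30.5% of all tested genes. Dnaja1, a main cytosolic partner of HSC70, had 27.0, 27.2 and 27.2 FPKM in libraries labelled CKO and 18.5, 17.6 and 18.9 FPKM in those labelled WT, a log2 difference of 0.54 (SE 0.038, limma adjusted p = 9.88e-08). Dnaja3, its mitochondrial relative, and Dnaja2, another cytosolic one, were higher by 0.36 and 0.19. Dnaja4 was under the filter at 0.266 to 0.361 FPKM in libraries labelled CKO and 0.212 to 0.268 FPKM in those labelled WT. The exons of Dnaja3 overlap those of Vasn on the same strand, and the sources used here do not say how shared reads were counted.

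Of 10 tested DNAJB genes, 4 were higher and 5 lower, beside 30.5% and 50.5% of all tested genes. Dnajb1, the HSP40 that pairs with inducible HSP70, had 13.1, 14.5 and 14.0 FPKM in libraries labelled CKO and 9.41, 9.51 and 10.4 FPKM in those labelled WT, a log2 difference of 0.46 (SE 0.052, limma adjusted p = 7.05e-06). Dnajb11, the ER co-chaperone ERdj3 of BiP, was higher by 0.65, Dnajb4 by 0.64 and Dnajb2 by 0.47. Dnajb14, an ER membrane J protein, had the largest decrease of all 59 genes, with 1.88, 1.93 and 1.91 FPKM in libraries labelled CKO and 9.51, 9.52 and 9.73 FPKM in those labelled WT, a log2 difference of -1.86 (SE 0.048, limma adjusted p = 1.68e-11). Dnajb12, its close relative, was not called at 0.10, but was called higher under median-of-ratios scaling (0.27) and quantile normalization (0.12). Dnajb3 and Dnajb7 were under the filter. Dnajb9, the ER protein ERdj4, fell by 0.54, Dnajb5 by 0.66, and Dnajb6, known to suppress aggregation of polyglutamine proteins, by 0.46. Of the 50-base windows of Dnajb6, 35.8% are shared with other genes. Dnajb13, known from sperm flagella, was lower at -0.96 and passed the filter only through the libraries labelled WT. It overlaps Ucp2 on the other strand, which had 20.1 ± 0.20 FPKM in libraries labelled CKO and 87.1 ± 1.2 FPKM in those labelled WT. Its 14 to 18 reads in libraries labelled CKO and 70 to 87 in those labelled WT cannot be told apart from reads of Ucp2 unless strand was used, which is not given in the sources used here.

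**Figure D3:**
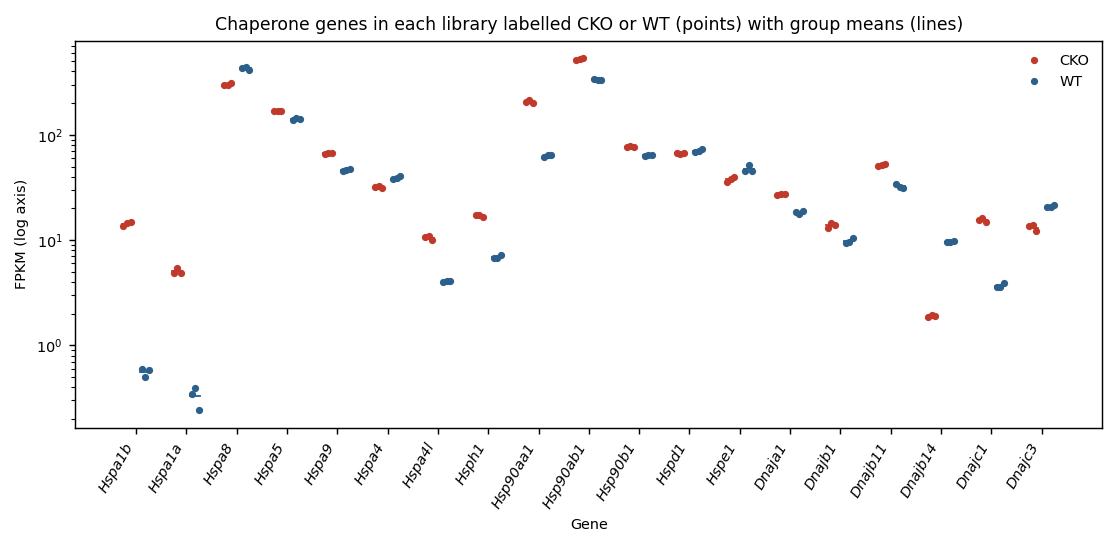
FPKM on a log axis of 19 chaperone genes in each library (points) with group means (lines), labelled CKO left of labelled WT. Hspa1b and Hspa1a are more than 10-fold apart, most other genes less than 2-fold, and Dnajb14 and Dnajc1 lie in opposite directions.

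In the DNAJC class, the most diverse one, 10 of 24 tested genes were higher, 11 lower and 3 not called. These shares, 41.67% higher and 45.83% lower, stand beside 30.5% and 50.5% of all tested genes. Dnajc1, an ER membrane J protein that binds ribosomes, had 15.7, 16.1 and 14.8 FPKM in libraries labelled CKO and 3.59, 3.55 and 3.91 FPKM in those labelled WT, a log2 difference of 1.82 (SE 0.051, limma adjusted p = 3.38e-11). Its opposite-strand neighbour Mllt10, whose exons overlap it, had a log2 difference of 0.18. Dnajc21, which acts in ribosome biogenesis, was higher by 0.82, and Dnajc10, the ER disulfide reductase ERdj5, by 0.35. Dnajc3, the ER co-chaperone P58IPK that also inhibits the kinase PERK, had 13.5, 13.9 and 12.1 FPKM in libraries labelled CKO and 20.7, 20.6 and 21.7 FPKM in those labelled WT, a log2 difference of -0.64 (SE 0.051, limma adjusted p = 3.51e-07). Dnajc9, a chaperone of histones H3 and H4, fell by 1.20 on the log2 scale, Dnajc28 by 0.90, and Dnajc27, a Rab-like GTPase with a J domain, by 0.41. The other 7 higher genes lay between 0.11 and 0.35, among them Dnajc5, the cysteine string protein, Dnajc13, an endosomal J protein, and Dnajc2, a J protein at the ribosome, with Dnajc25, Dnajc17, Dnajc12 and Dnajc16. Dnajc19, a subunit of the mitochondrial import motor, was lower at -0.40. Dnajc4, Dnajc14 and Dnajc24 were not called, and Dnajc6, the auxilin of clathrin coats, was under the filter. Under median-of-ratios scaling 6 of the 11 lower genes lost their call (Dnajc7, Dnajc8, Dnajc11, Dnajc15, Dnajc18 and Dnajc30).

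Promoters of Dnajb4 and Dnajc3 are shown because one gene was higher and the other lower and they hold different elements, TTCNNGAA in Dnajb4 and the ER stress element, CCAAT and CCACG around a spacer, in Dnajc3 (capitals, 250 bases before the start, RefSeq on GRCm38.p6):
Dnajb4 (chr3:152193846-152194095, minus strand): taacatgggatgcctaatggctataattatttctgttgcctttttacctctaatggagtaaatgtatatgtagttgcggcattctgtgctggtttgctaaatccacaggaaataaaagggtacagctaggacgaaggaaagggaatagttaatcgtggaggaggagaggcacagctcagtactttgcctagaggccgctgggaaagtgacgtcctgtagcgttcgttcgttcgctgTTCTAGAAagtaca
Dnajc3 (chr14:118937682-118937931, plus strand): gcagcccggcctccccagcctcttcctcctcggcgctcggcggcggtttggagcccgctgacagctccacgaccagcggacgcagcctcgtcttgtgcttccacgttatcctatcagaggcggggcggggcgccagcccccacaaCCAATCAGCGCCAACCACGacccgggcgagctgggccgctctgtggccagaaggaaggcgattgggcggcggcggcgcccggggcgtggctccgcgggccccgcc
The Dnajb4 window lies inside the annotated span of the gene, which reaches base 152210302 on the minus strand, so this start is an internal one. The ER stress element occurred in 3 of the 60 promoters, Dnajc3, Hsp90b1 and Hspa5, and in 0.13% of all genes. In Hspa5 it reads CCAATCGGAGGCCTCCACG, 65 to 47 bases before the start. This Hspa5 site lies before the RefSeq start but overlaps an annotated exon. Of the 3 genes, Hspa5 and Hsp90b1 were higher in libraries labelled CKO, and Dnajc3 was lower.

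Within the ER, the chaperone genes split as well: Hspa5, Hsp90b1, Hspa13, Dnajb11, Dnajc10 and Dnajc1 were higher, and Dnajb9, Dnajc3 and Dnajb14 were lower. Among 24 tested genes of ER folding and the unfolded protein response, 12 were higher and 10 lower. Of all tested genes, 30.5% were higher and 50.5% lower. Ero1l, the oxidase that recharges protein disulfide isomerase, had 168.4 FPKM in libraries labelled CKO and 11.1 FPKM in those labelled WT, a log2 difference of 3.80. Herpud1, a subunit of ER-associated degradation, was lower at -1.58 and Ero1lb, a paralog of Ero1l, at -1.12. Ddit3, the stress transcription factor CHOP, was higher by 0.97, from the one of its 2 rows that had reads.

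Over all 8 partner lists, 48 of 99 tested genes (48.5%) were higher and 36 (36.4%) lower, beside 30.5% and 50.5% of all tested genes. Under median-of-ratios scaling 60 (60.6%) were higher and 28 (28.3%) lower, beside 40.8% and 38.9%. Hsf4 and Egr1, and Bag4 among the exchange factors, passed the filter through 1 group only. Of 17 tested HSP90 co-chaperones 7 were higher and 5 lower, with Stip1, which links HSP70 to HSP90, at 0.81 and Ptges3, the p23 protein, at 0.60, against Cdc37l1 at -0.39 and Cdc37, the kinase adaptor, at -0.34. Of 10 HSP70 exchange factors and BAG genes 3 were higher and 5 lower, with Hyou1, the ER exchange factor, at 0.50 and Grpel1, the mitochondrial one, at 0.44, against Bag3, an HSF1 target, at -0.53 and Sil1 at -0.45. Of 4 tested genes of heat shock factors and their regulators, Hsf2 (0.53) and Hsf1 (0.15) were higher and Hsbp1 (0.013) was not called. Hsf4 (-1.20) was lower, at 0.268 FPKM in libraries labelled CKO, from 5 to 12 reads, and 1.91 FPKM in those labelled WT, the group through which it passed the filter. For the chaperonin CCT, which folds actin and tubulin, 5 of 8 subunits were higher and 2 lower, from Cct3 at 0.90 and Cct7 at 0.50 to Cct4 at -0.53 and Cct5 at -0.59. Prefoldin, which hands chains to CCT, had 3 of 6 higher and 2 lower, with Pfdn5 at -0.93 and Pfdn1 at 0.48. Mitochondrial chaperone partners and proteases gave 5 higher and 5 lower of 12, with the proteases Clpp, Lonp1 and Afg3l2 at 0.86, 0.82 and 0.70 and Hscb, an iron-sulfur J protein outside the prefix rule, at -0.90.

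Immediate early genes, which react within minutes to stimulation and to tissue handling, were listed beside the inducible chaperones. Of 18 tested, 11 were higher and 6 lower, beside 30.5% and 50.5% of all tested genes. Ier3 had 234.8 FPKM in libraries labelled CKO and 11.5 FPKM in those labelled WT, Dusp1 was higher by 3.33 and Fosl2 by 2.03, while Egr2 was lower at -2.23. Their summed level was 1008 to 1036 FPKM in libraries labelled CKO and 480.5 to 486.2 FPKM in those labelled WT. Its part in the difference of Hspa1a and Hspa1b was not tested.

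**Figure D4:**
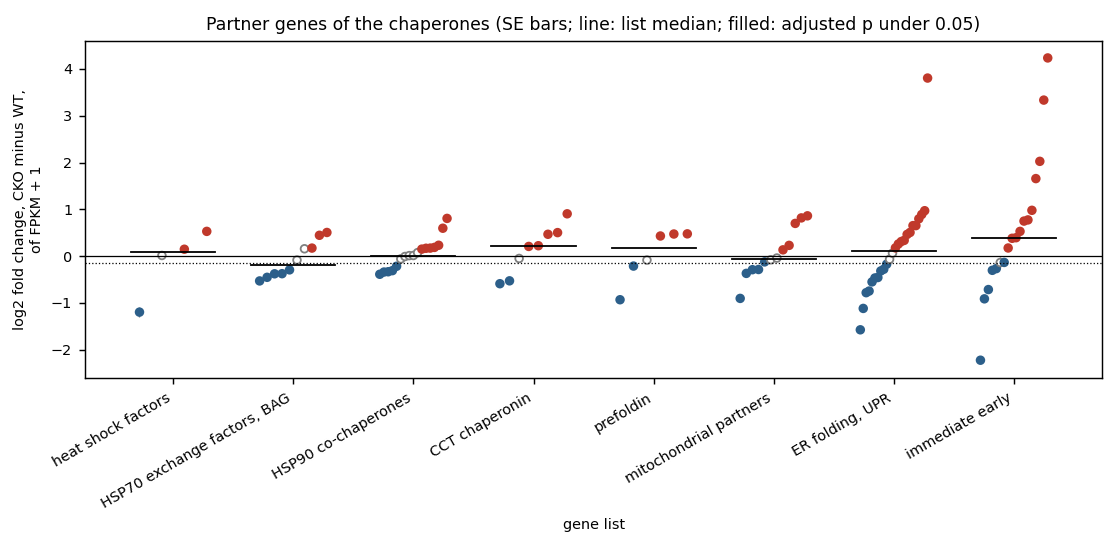
Log2 fold change of FPKM + 1, libraries labelled CKO minus labelled WT, with SE bars, for the tested genes of 8 lists of chaperone partners and stress genes. Black lines are list medians, the dotted line is the median of all tested genes at -0.14, and every list holds genes on both sides of 0.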

How the data were processed

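RNA of sorted macrophages was extracted with TRIzol and made into libraries with a stranded mRNA kit, per the labels' protocols. Per the file headers, each library's deposited table gives the authors' FPKM per gene. Build mm10 and the tools HISAT2 2.1.0 and fastp 0.19.3, featureCounts 1.6.2 and StringTie 1.3.4d, and DESeq2 1.22.1 are named in the submitters' processing notes without saying which step each made, as are GATK 4.0.11.0 and Cufflinks. FPKM times gene length gave whole multiples of 1 step for all values within 0.01 reads, so reads were recovered for depth and for 1 alternative test. Reads carried no molecular identifiers, so copies made in amplification cannot be told apart from separate molecules. Counting error is thus only a lower limit on the error of a read number.

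Genes with FPKM of at least 1 in 3 libraries were tested with limma 3.58.1 (trend) in R 4.3.3 on log2(FPKM + 1), the group as the only term, labelled CKO minus labelled WT, with Benjamini-Hochberg adjustment over 9953 genes and calls under 0.05. Fold changes on this scale understate low genes. The limma step was tested on simulated reads in which most genes were unchanged. Most genes differed in these data, so that test does not cover the choice of scaling. Single values were compared by exact permutation. Near copies were sought with 50-base windows of GENCODE M21 transcripts. Tables used pandas 2.3.3 and numpy 2.4.6 in Python 3.11.15, and exact tests scipy 1.17.1.

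Named with values were the core chaperones and, per class and direction, up to 4 called genes with the largest change, no overlap and a mean of at least 1 FPKM, and up to 4 called genes per partner list. Hspa13, Hspb9, Hspb11, Dnajb12, Dnajb6, Hsf1 and some others outside the rule were added after their values were seen. The genes and lists were chosen with earlier results of these data known. Groups and replicate numbers came from the sample titles, and the numbers did not pair the libraries. The values of 1 tested gene are not reported here.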

Additional observations from a re-analysis of the deposited data

How the results depend on the processing

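Of 37 tested chaperone genes named by the rule, 34 kept their direction and call wherever they were run, 23 under all 15 alternatives and 11 under 14, since a mean FPKM of at least 5 removed them. The exceptions were Hspa14, Hspd1 and Hspb11. Under median-of-ratios scaling Hspa14 turned to 0.013 and Hspd1 to 0.10 (adjusted p = 0.0193), and the genes called lower numbered 15 in place of 23. A mean FPKM of at least 5 left 39 genes and 14 called lower. The median difference of the chaperone genes, 0.18, ranged from 0.11 to 0.20 when 1 library was left out. It was 0.20 with a pseudocount of 0.1, 0.20 with 0.5, 0.19 at a mean FPKM of 5 or more, 0.27 with median-of-ratios scaling, 0.15 with quantile normalization and 0.20 with limma voom on recovered reads. Without a filter, which adds genes near 0 to reach 69, it was -0.0073. Scaled by median-of-ratios, an alternative chosen after seeing the data, the summed HSP70 and HSP110 FPKM of libraries labelled CKO minus labelled WT was 32.9 in place of -51.0. Marker sums without their leading gene were likewise added later. Leaving out the 3 genes that passed through 1 group, likewise chosen later, gave 27 higher and 22 lower. Same-numbered libraries did not deviate together (correlations 0.019, 0.012 and -0.039), and with the replicate number as a block 8041 of all genes were called, in place of 8069, with 28 chaperone genes higher and 23 lower. Depth limits genes with few reads, such as Hspb1, Hspa1a and Hspa1b in libraries labelled WT.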
